A study of Mus musculus with 18 samples.

Results

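The 6 genes described here encode tropomyosins (Tpm1, Tpm2, Tpm3 and Tpm4) and nonmuscle alpha-actinins (Actn1 and Actn4) of the mouse. They were taken by name, as genes with exons known to be targets of PTB proteins, and are 6 of the 53458 genes and 63 of the 136176 transcripts measured. RNA was sequenced from cells that flow cytometry had sorted out of the bone marrow of C57BL/6 mice. Cells lacking Ptbp1 (KO) were compared with Ptbp1 fl/fl cells (WT) in 3 populations. Haematopoietic stem cells (HSC) were Lin-, Sca-1+, c-kit+, CD150+ and CD48-. PreMegE cells, progenitors of megakaryocytes and red cells, carried CD150 and c-kit and lacked lineage markers, Sca-1, CD41, FcgRII/III and CD105. PreCFU-E cells, which are committed to the red cell line, had the same markers but carried CD105. Each of the 6 groups holds 3 libraries, 18 in all. The labels call them biological replicates and give no batch. They give neither the Cre driver of the deletion nor the age or sex of the animals.

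Tropomyosins are coiled-coil proteins that lie end to end along actin filaments and set which motors and crosslinkers can bind. Alternative promoters, exchanged internal exons and alternative last exons make many isoforms from each gene. Alpha-actinins are antiparallel dimers that crosslink actin filaments. PTBP1 binds pyrimidine-rich RNA and mostly represses exons. In rat it represses an exon of Tpm1 in smooth muscle, the skeletal-muscle exon of Tpm2 in nonmuscle cells, and the smooth-muscle exon of Actn1. PTBP2 and PTBP3 are its paralogs.

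The exons on which the results turn come in exchanged pairs, of which a transcript holds 1. Tpm1, Tpm2 and Tpm3 each have a pair of 76-base exons at the same place in the gene. The Tpm1 pair lies on the minus strand of GRCm38 at chr9:67032466-67032541 (upstream) and chr9:67031951-67032026 (downstream). In Tpm2 the pair is at chr4:43519003-43519078 and chr4:43518644-43518719, also on the minus strand. The Tpm3 pair, on the plus strand, is at chr3:90088401-90088476 and chr3:90089048-90089123. All 6 exons are wholly coding. They are shown as the GENCODE M21 transcripts give them, 5′ to 3′ on the strand of the gene, with the bases that differ from the partner exon in capitals.
Tpm1 upstream: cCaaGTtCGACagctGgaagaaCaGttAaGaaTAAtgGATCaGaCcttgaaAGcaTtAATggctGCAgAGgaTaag
Tpm1 downstream: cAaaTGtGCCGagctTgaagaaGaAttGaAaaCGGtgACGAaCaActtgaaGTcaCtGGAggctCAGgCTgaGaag
Tpm2 upstream: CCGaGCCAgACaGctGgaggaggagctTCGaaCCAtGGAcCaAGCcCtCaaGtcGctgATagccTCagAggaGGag
Tpm2 downstream: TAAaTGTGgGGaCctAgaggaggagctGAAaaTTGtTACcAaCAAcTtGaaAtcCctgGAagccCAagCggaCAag
Tpm3 upstream: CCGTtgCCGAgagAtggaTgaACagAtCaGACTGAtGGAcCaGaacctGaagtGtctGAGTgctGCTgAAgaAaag
Tpm3 downstream: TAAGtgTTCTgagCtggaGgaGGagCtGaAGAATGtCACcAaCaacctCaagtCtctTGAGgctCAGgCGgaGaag
Within a pair, 43 of 76 bases were identical in Tpm1, 41 in Tpm2 and 39 in Tpm3. Exons at the same position in different genes were more alike than partners within a gene. The downstream exons shared 73.7% of bases between Tpm1 and Tpm2, 75.0% between Tpm1 and Tpm3 and 76.3% between Tpm2 and Tpm3. For the upstream exons these shares were 64.5%, 65.8% and 61.8%.

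Each library held between 15956408 and 29226287 estimated reads, and mitochondrial ribosomal RNA took 12.7% to 33.6% of them. Ptbp1 coding transcripts held 2.6 to 8.13 TPM (a level corrected for transcript length and scaled to the library total) in KO HSC, against 54.0 to 65.3 TPM in WT HSC. They held 4.79 to 15.0 TPM in KO preMegE against 71.5 to 128 TPM in WT preMegE, and 6.97 to 14.4 TPM in KO preCFU-E against 131 to 162 TPM in WT preCFU-E. Ptbp1 counts summed over all its transcripts differed by -1.09, -1.77 and -2.02 on the log2 scale in HSC, preMegE and preCFU-E (edgeR, adjusted p = 0.000211, 1.2e-07 and 5.51e-09). Reads of the gene thus remained in KO cells. Ptbp2 counts were higher in KO by 1.04, 2.22 and 3.78 on the log2 scale in HSC, preMegE and preCFU-E (edgeR, adjusted p = 0.00583, 3.45e-07 and 8.68e-11). Ptbp3 was not called in any of the 3 (log2 differences -0.08, -0.05 and -0.04). Xist ran from 6430 to 8620 CPM (counts scaled to the library's total over tested genes times its TMM normalization factor) in HSC libraries. It reached at most 1.12 CPM in progenitor libraries, where the Y-linked gene Eif2s3y held 38.3 CPM or more. Sex and the step from HSC to preMegE therefore cannot be told apart. Transcripts annotated as retained introns held 12.5% to 15.2% of TPM in HSC, 5.54% to 7.59% in preMegE and 4.40% to 5.84% in preCFU-E. The total for this share was the TPM of retained-intron, protein-coding, nonsense-mediated decay and processed transcripts only. The smooth-muscle markers Acta2, Tagln, Myh11, Cnn1 and Des stayed at or under 1.01 CPM in every library.

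Tpm1 exchanged its 76-base exon almost completely in KO cells of all 3 populations. Exon use was measured as percent spliced in: the TPM of transcripts that hold the exon, as a percentage of the TPM of those that hold it and those that span it without it. In KO HSC the downstream exon was spliced in at 77.8%, 87.8% and 83.0%, against 26.1%, 17.2% and 25.4% in WT HSC. KO preMegE libraries had 73.5%, 84.2% and 87.2%, against 13.3%, 18.3% and 18.3% in WT preMegE. For preCFU-E the values were 93.6%, 93.3% and 93.9% in KO libraries, against 11%, 14% and 13.1% in WT libraries. All 9 KO libraries lay above all 9 WT libraries, with no overlap in any population. The differences were +60.0, +65.0 and +80.9 percentage points (limma on logit values, adjusted p = 0.000185, 0.000119 and 1.29e-06).

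The upstream Tpm1 exon mirrored this. It was spliced in at 3.90%, 9.17% and 6.86% in KO HSC, against 61.0%, 75.1% and 66.6% in WT HSC. In preMegE the values were 11.6%, 10.9% and 7.61% in KO libraries, against 78.1%, 77.7% and 78.8% in WT libraries. KO preCFU-E libraries had 6.15%, 3.72% and 4.14%, against 85.8%, 83.7% and 85.9% in WT preCFU-E. The highest KO library (11.6%) was thus far below the lowest WT library (61.0%). The differences were -60.9, -68.2 and -80.5 points (limma, adjusted p = 2.78e-05, 4.04e-05 and 9.05e-07). Because the exons of a pair exclude each other, these are 2 readings of 1 exchange.

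Among the 8179 cassette exons tested, the size of the Tpm1 changes ranked 14 (upstream) and 15 (downstream) in HSC, 2 and 5 in preMegE, and 4 and 3 in preCFU-E. The median absolute change over all these exons was 6.90 points in HSC, 2.75 points in preMegE and 2.00 points in preCFU-E, and the 95th percentile was 28.3, 17.8 and 16.6 points. The Tpm1 calls held with any 1 library left out. Fitted on the 6 HSC libraries alone, the changes in HSC were as large but were not called (adjusted p = 0.139 upstream and 0.160 downstream), in a fit that called 6 of all cassette exons. The KO effect on the downstream exon in preCFU-E exceeded that in HSC by 20.9 points, a difference that was not called (limma, adjusted p = 0.218, where 0.306% of exons were called). Between preCFU-E and preMegE the difference was 15.9 points (adjusted p = 1).

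**Figure D1:**
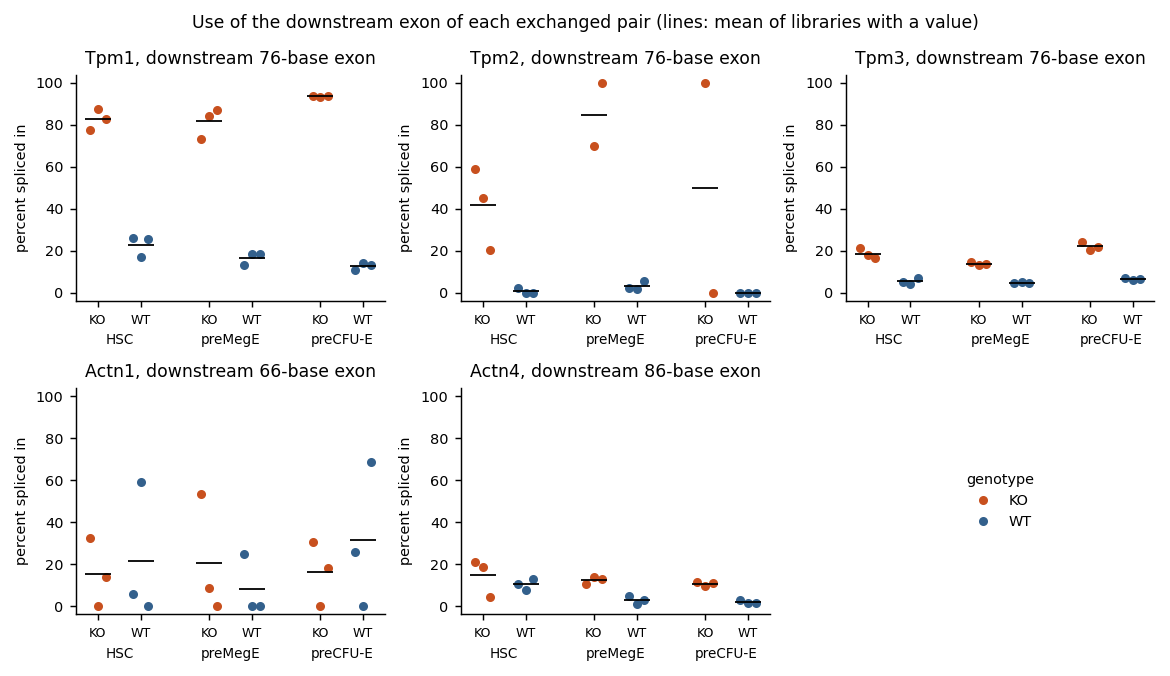
Percent spliced in of the downstream exon of each exchanged pair (y axis, percent) in every library of the 6 groups (x axis, KO beside WT in each population); points are libraries and lines are means of libraries with a value. The Tpm1 points of KO libraries lie between 73.5% and 93.9% and those of WT libraries between 11% and 26.1%, while KO and WT points of Actn1 overlap in every population.

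Of the annotated transcripts, those that made up 5% or more of the TPM of the gene in the mean of some group numbered 8 of 21 for Tpm1, 5 of 6 for Tpm2, 6 of 16 for Tpm3, 1 of 2 for Tpm4, 4 of 7 for Actn1 and 7 of 11 for Actn4. A pair of Tpm1 transcripts differ in their coding part by this exon alone. Tpm1-212, with the upstream exon, and Tpm1-211, with the downstream exon, each have 744 coding bases in 8 exons, of which 7 are shared. Tpm1-212 held 1.03, 0 and 2.61 TPM in KO HSC, against 27.9, 38.4 and 23.2 TPM in WT HSC. In preMegE it held 3.78, 2.62 and 1.92 TPM in KO libraries and 20.7, 30.7 and 29.3 TPM in WT libraries. KO preCFU-E libraries had 1.03, 0.656 and 0.942 TPM, against 23.5, 29.0 and 25.2 TPM in WT preCFU-E. The lowest WT library was thus above the highest KO library by far in each population.

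**Figure D2:**
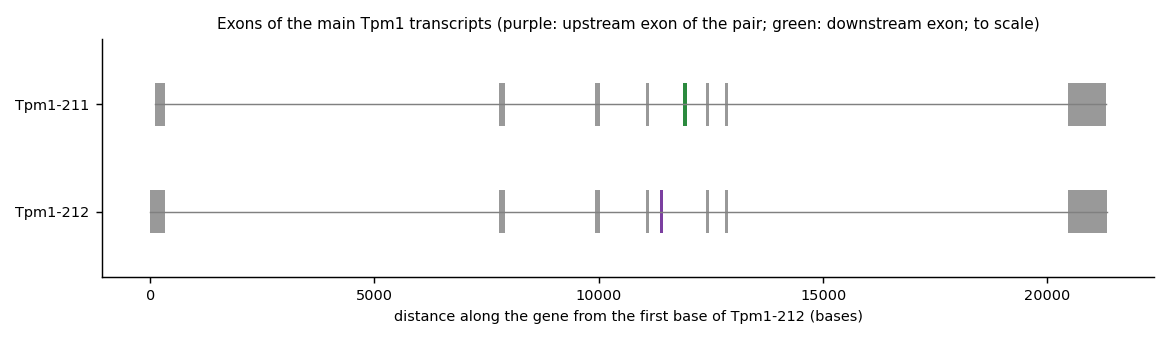
Exons of Tpm1-211 and Tpm1-212 drawn to scale along the gene (x axis, distance in bases from the first base of Tpm1-212); purple is the upstream and green the downstream 76-base exon. The transcripts share their other 7 coding exons and differ in which exon of the pair they hold.

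Tpm1-211 was higher in KO than in WT libraries. It held 16.8, 9.91 and 33.4 TPM in KO HSC, against 5.52, 2.20 and 7.33 TPM in WT HSC. The values were 17.6, 19.5 and 20.4 TPM in KO preMegE, against 2.51, 5.05 and 5.15 TPM in WT preMegE, and 12.7, 12.8 and 16.9 TPM in KO preCFU-E, against 2.47, 4.41 and 3.47 TPM in WT preCFU-E. As a mean share of the gene's TPM, Tpm1-212 made up 1.99%, 9.43% and 4.63% in KO HSC, preMegE and preCFU-E, against 51.3%, 74.2% and 82.7% in the WT populations. Tpm1-211 made up 34.7%, 66.6% and 73.7% in KO, against 9.23%, 11.5% and 10.9% in WT. In HSC other transcripts with the downstream exon added to this, among them Tpm1-206 with 6.83, 19.0 and 4.72 TPM in KO HSC, against 0.599, 0 and 2.45 TPM in WT HSC.

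Counts of single transcripts were also tested. Salmon divides reads among near-identical transcripts, so a single transcript's count is less certain than a sum over transcripts. Of the 17 transcripts of these genes that were tested for usage, 2 were called in HSC, 0 in preMegE (edgeR; 4 at an unadjusted p under 0.05) and 2 in preCFU-E, where 1.48%, 0.0829% and 0.109% of the 30159 transcripts tested were called. Usage of Tpm1-212 relative to the gene's other transcripts fell by 3.12 in HSC and 2.79 in preCFU-E on the log2 scale (edgeR diffSpliceDGE, adjusted p = 0.000134 and 0.00284). In preMegE the difference was -2.03 (adjusted p = 0.0961). The call in preCFU-E was lost without KO replicate 2 or KO replicate 3 (highest adjusted p = 0.0878). For Tpm1-211 the log2 differences were 1.51, 1.77 and 1.99, and none was called (adjusted p = 0.182, 0.358 and 0.169). Tpm1-206, which also holds the downstream exon, had 2.07, 1.76 and 2.74 TPM in KO preCFU-E and was listed at 0 in all 3 WT preCFU-E libraries (adjusted p = 0.0085). That call was lost when any 1 WT preCFU-E library was left out (highest adjusted p = 0.125). With the transcripts of a gene combined by Simes' method, Tpm1 and Tpm3 were called in HSC (adjusted p = 0.000215 and 0.00572), none of the 5 genes with more than 1 tested transcript in preMegE (edgeR, lowest adjusted p = 0.142, for Tpm1) and Tpm1 in preCFU-E (adjusted p = 0.00577), where 4.26%, 0.138% and 0.234% of 9415 genes were called.

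**Figure D3:**
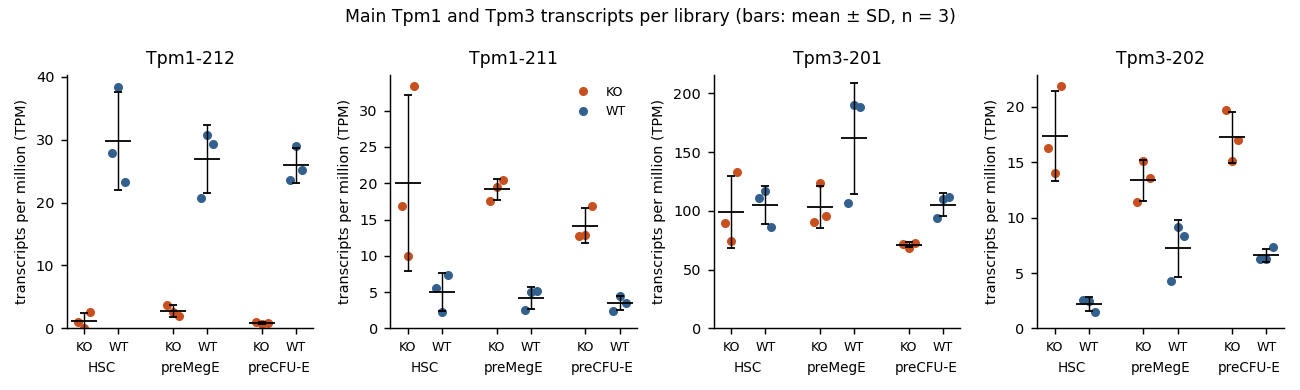
Level in TPM (y axis) of Tpm1-212, Tpm1-211, Tpm3-201 and Tpm3-202 in every library (points; bars are mean ± SD, n = 3), KO beside WT in each population. Tpm1-212 reaches at most 3.78 TPM in KO libraries and at least 20.7 TPM in WT libraries, while Tpm3-201 stays the main Tpm3 transcript in all groups.

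Tpm3, the most abundant of the 6 genes by TPM, showed a smaller exchange at the pair of the same place and length. The downstream exon was spliced in at 21.1%, 18.1% and 16.6% in KO HSC, against 5.10%, 4.02% and 7.24% in WT HSC. KO preMegE libraries had 14.8%, 13.0% and 13.8%, against 4.73%, 4.98% and 4.77% in WT preMegE. In preCFU-E the values were 24.1%, 20.2% and 21.9% in KO libraries, against 7.17%, 6.02% and 6.54% in WT libraries. KO and WT libraries did not overlap in any population, yet the downstream exon stayed the minor form everywhere.

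The Tpm3 differences were +13.1 points in HSC and +15.5 points in preCFU-E (limma, adjusted p = 0.0142 and 0.0215), and both were called. In preMegE the difference was +9.05 points and was not called (adjusted p = 0.157). The upstream exon, the mirror reading, fell by 13.7 points in HSC and by 15.5 points in preCFU-E (adjusted p = 0.0157 and 0.0217), and differed by -9.06 points in preMegE (adjusted p = 0.171). The HSC calls held with any 1 library left out but were lost in a fit of the 6 HSC libraries alone (adjusted p = 0.581 downstream and 0.610 upstream). The preCFU-E calls were lost whichever 1 of the 6 preCFU-E libraries was left out (adjusted p = 0.0778 to 0.118), with changes of 14.4 to 16.4 points.

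By transcript, Tpm3-201 holds the upstream and Tpm3-202 the downstream exon, with 744 coding bases each. They share 6 coding exons and have 2 and 3 of their own, so that they differ by more than this pair. Tpm3-202 held 16.3, 14 and 21.9 TPM in KO HSC, against 2.61, 2.50 and 1.49 TPM in WT HSC. Its values were 11.4, 15.1 and 13.6 TPM in KO preMegE, against 4.31, 9.13 and 8.31 TPM in WT preMegE, and 19.7, 15.1 and 17.0 TPM in KO preCFU-E, against 6.23, 6.25 and 7.31 TPM in WT preCFU-E. No KO library overlapped a WT library of its population. Its usage rose by 1.98 on the log2 scale in HSC (edgeR diffSpliceDGE, adjusted p = 0.00527); the differences of 0.99 in preMegE and 1.20 in preCFU-E were not called (adjusted p = 1 and 0.928). Tpm3-201 made up a mean of 45.7%, 79.1% and 75.9% of Tpm3 TPM in KO HSC, preMegE and preCFU-E, against 62.6%, 89.5% and 90.9% in the WT populations.

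A further Tpm3 exon, of 79 bases at chr3:90091013-90091091, lies downstream of the pair. It was spliced in at 42.7%, 26.7% and 27.3% in KO HSC, against 18.1%, 9.91% and 22.8% in WT HSC. KO preMegE libraries had 14%, 14.2% and 16.7%, against 6.00%, 6.01% and 6.38% in WT preMegE, and KO preCFU-E libraries 24.0%, 20.4% and 22.4%, against 8.55%, 6.50% and 6.44% in WT preCFU-E. The groups did not overlap, but the differences of +15.3, +8.86 and +15.1 points were not called (limma, adjusted p = 0.177, 0.553 and 0.0977). Restricted to protein-coding transcripts, this exon was called in HSC and in preCFU-E (limma, adjusted p = 0.0124 and 0.0129). In the progenitors its values were close to those of the downstream exon of the pair. Any transcript that holds both exons enters both readings, so they may not be separate changes.

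Across the 12 cassette exons of these genes that could be tested, HSC had 4 calls, preMegE 2 and preCFU-E 4. Over all 8179 exons tested, 1.33%, 0.171% and 0.758% were called. The called exons were the Tpm1 and Tpm3 pairs, and in preMegE the Tpm1 pair. Because the exons of a pair mirror each other, the calls within a pair are not separate changes. A call required an adjusted p under 0.05 and a change of at least 10 points. In the 3 differences of the KO effect between populations, 0 of the 12 were called by limma, where 0.245% (preMegE minus HSC), 0.0856% (preCFU-E minus preMegE) and 0.306% (preCFU-E minus HSC) of all exons were. At an unadjusted p under 0.05 there were 0, 2 and 4 of the 12.

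**Figure D4:**
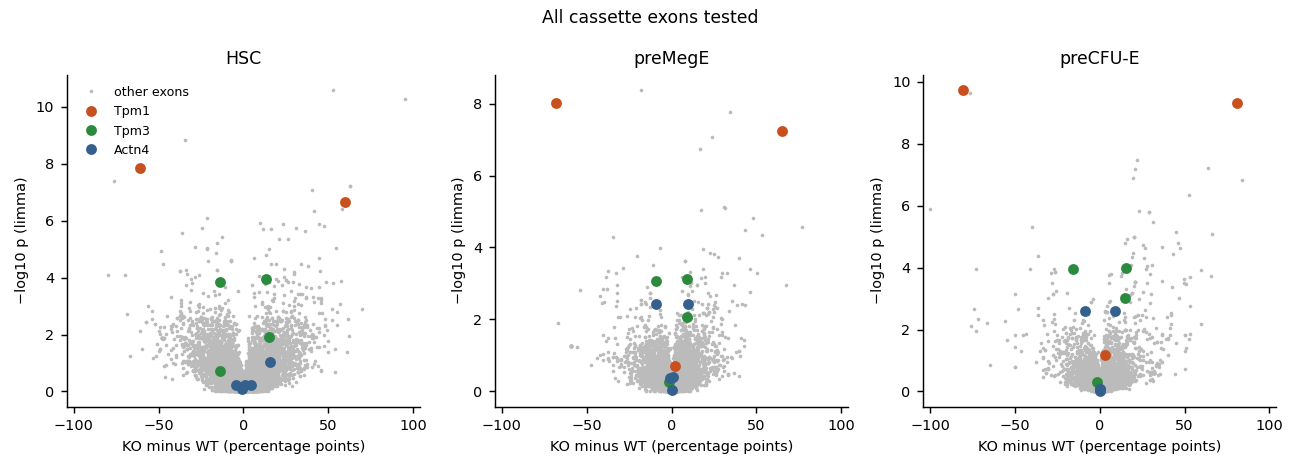
Change in percent spliced in, KO minus WT in percentage points (x axis), against −log10 of the unadjusted limma p (y axis) for all 8179 cassette exons in HSC, preMegE and preCFU-E; the larger points are exons of Tpm1, Tpm3 and Actn4. The Tpm1 pair lies far from 0 on both sides, with changes of 60.0 to 80.9 points in size, and the Tpm3 and Actn4 exons lie within 15.5 points of 0.

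Tpm2, the tropomyosin whose muscle-type exon PTB represses in rat, was too low for the main exon test. It had 0 to 123 estimated reads per library, so its exons were read at a minimum of 1 TPM in place of 5 TPM. The downstream exon was spliced in at 59.2%, 45.3% and 20.3% in KO HSC, against 2.39%, 0% and 0% in WT HSC, with no overlap. In preMegE KO replicates 2 and 3 had 69.9% and 100%, against 2.41%, 1.69% and 5.43% in WT preMegE. KO replicate 1 gave no value and was left out of the fit for this exon. These preMegE values rest on 5, 15 and 5 estimated Tpm2 reads in KO libraries and 22, 30 and 20 in WT libraries. The minimum applied to the mean over all libraries. Mean Tpm2 levels were 0.309 TPM in KO preMegE and 1.09 TPM in WT preMegE, against 2.62 TPM in KO HSC and 4.67 TPM in WT HSC. The differences of +40.8 points in HSC and +81.8 points in preMegE were not called (limma over 12087 exons, adjusted p = 0.369 and 0.606). In preCFU-E, with at most 3 reads per library, the KO libraries with a value had 100% and 0%, and the WT libraries 0%. At this minimum 18 exons of these genes were tested and the same numbers as before, 4, 2 and 4, were called, against 1.04%, 0.141% and 0.488% of all exons.

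By transcript, Tpm2-203, with the upstream exon, held 1.52, 0 and 0.0926 TPM in KO HSC, against 5.51, 4.67 and 2.03 TPM in WT HSC, with no overlap. Tpm2-202, with the downstream exon, held 2.20, 0.329 and 0.695 TPM in KO HSC, against 0.155, 0 and 0 TPM in WT HSC. Tpm2-201, which also holds the upstream exon, held 0, 0.397 and 2.64 TPM in KO HSC, against 0.822, 0 and 0.818 TPM in WT HSC, which overlap. Its mean share of Tpm2 TPM was 43.9% in KO HSC, against 13.8% in WT HSC. The 3 transcripts have 852 coding bases each. Tpm2-203 and Tpm2-202 share 7 coding exons and have 2 each of their own, while Tpm2-201 and Tpm2-202 share 8 and have 1 each. Usage of Tpm2-202 in HSC differed by 3.12 on the log2 scale without a call (adjusted p = 0.696).

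Actn4, which encodes the most abundant alpha-actinin here, has a pair of 86-base exons on the minus strand at chr7:28911490-28911575 (upstream) and chr7:28909903-28909988 (downstream). They are more alike than the tropomyosin pairs, with 65 of 86 bases identical, and capitals again mark the bases that differ.
Actn4 upstream: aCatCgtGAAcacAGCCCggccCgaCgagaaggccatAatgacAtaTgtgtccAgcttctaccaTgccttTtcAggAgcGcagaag
Actn4 downstream: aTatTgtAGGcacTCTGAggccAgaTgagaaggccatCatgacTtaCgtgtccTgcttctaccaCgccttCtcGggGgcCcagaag
The downstream exon was spliced in at 21.0%, 18.6% and 4.31% in KO HSC, against 10.7%, 7.46% and 12.9% in WT HSC, and these groups overlapped. KO preMegE libraries had 10.5%, 13.8% and 12.8%, against 5.02%, 1.11% and 2.74% in WT preMegE. In preCFU-E the values were 11.4%, 9.49% and 11.2% in KO libraries, against 2.81%, 1.47% and 1.57% in WT libraries. In both progenitor populations every KO library was above every WT library, and the share of all exons without overlap was not computed. The differences of +4.29, +9.41 and +8.74 points were under 10 points and were not called (limma, adjusted p = 0.857, 0.353 and 0.203). A single annotated transcript, Actn4-202, carries this exon; it has 1554 coding bases, against 2736 in the main transcript Actn4-201, and made up 7.82% and 7.46% of Actn4 TPM in KO preMegE and preCFU-E, against 2.07% and 1.34% in the WT populations.

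The pair that encodes part of the calcium-binding region of alpha-actinins was also read in both genes. In Actn4 its upstream exon, of 81 bases at chr7:28895432-28895512, was spliced in at 90.2% to 100% in KO libraries and 89.7% to 100% in WT libraries, and was not called in any comparison of KO with WT. Actn1, the gene of the rat smooth-muscle exon, gave no stable value. Its downstream exon, of 66 bases at chr12:80170183-80170248, was spliced in at 32.3%, 0% and 14% in KO HSC, against 5.82%, 59.0% and 0% in WT HSC. In preMegE it stood at 53.5%, 8.68% and 0% in KO libraries, against 24.9%, 0% and 0% in WT libraries, and in preCFU-E at 30.7%, 0% and 18.2% in KO libraries, against 25.7%, 0% and 68.6% in WT libraries. The groups overlapped in all 3 populations (limma, adjusted p = 1 in each). Actn1 had 43 to 383 estimated reads per library.

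The other Tpm1 exons that entered the tests were low and were not called. The 79-base exon at chr9:67029664-67029742 was spliced in at 0.547% to 6.83% in KO libraries and 0.139% to 11.6% in WT libraries. The 126-base pair near the start of the gene, whose homolog in rat holds the exon repressed by PTB in smooth muscle, could be read only at the minimum of 1 TPM. Values are given for its upstream exon alone, which was not matched to the repressed rat exon. That upstream exon, at chr9:67048124-67048249, was spliced in at 22.1%, 7.19% and 47.5% in KO HSC, against 9.87%, 1.43% and 0% in WT HSC, which overlap (limma, adjusted p = 0.510). In the progenitors its values ran from 0% to 39.8% in KO libraries and from 0% to 33.7% in WT libraries. A form of the Tpm3 upstream exon with a longer 3′ end, at chr3:90088401-90088481, differed by -14, -1.24 and -1.65 points in HSC, preMegE and preCFU-E, and an Actn4 exon at chr7:28895121-28895180 by 15.5, 0.164 and 0 points, with overlap in each population and without a call (lowest adjusted p = 0.418).

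By summed gene counts, none of the 6 genes was called in KO against WT in any population (0 of 6 in each), where, for HSC, preMegE and preCFU-E, 0.844%, 0.0603% and 0.153% of the 21565 genes tested were called (edgeR quasi-likelihood test). At an unadjusted p under 0.05 there were 2 in each population: Tpm4 and Actn1 in HSC, Tpm3 and Actn4 in preMegE, and Tpm1 and Actn1 in preCFU-E. DESeq2 called 0 of the 6 in HSC, 0 in preMegE and 1, Actn1, in preCFU-E, and limma-voom called 0 in each. Nor was any of them called in the 3 differences of the KO effect, preMegE minus HSC, preCFU-E minus preMegE and preCFU-E minus HSC, where 0.0325%, 0% and 0.051% of genes were (2, 1 and 0 of the 6 at an unadjusted p under 0.05). In these bulk samples, fewer cells of a type and less RNA per cell cannot be told apart.

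Actn1, an alpha-actinin of focal contacts and stress fibres, came nearest to a call. It had 9.79, 9.49 and 6.89 CPM in KO preCFU-E, against 3.99, 2.50 and 3.06 CPM in WT preCFU-E, so that the lowest KO library was above the highest WT library. The log2 difference was 1.45 (SE 0.30, adjusted p = 0.0573). It was called without the filter on low counts, by DESeq2 and in a fit of preCFU-E alone (adjusted p = 0.000598 at the lowest), and was not called by the other 4 alternatives. On the TPM scale these groups overlapped, with 2.04, 1.66 and 1.47 TPM in KO preCFU-E and 1.58, 0.606 and 0.838 TPM in WT preCFU-E. In HSC Actn1 had 8.06, 16.8 and 9.91 CPM in KO libraries and 8.21, 7.62 and 5.64 CPM in WT libraries (log2 difference 0.69, SE 0.29, adjusted p = 0.288). In preMegE the values were 14.5, 10.5 and 12.8 CPM in KO libraries and 8.28, 9.15 and 8.38 CPM in WT libraries, with no overlap (0.55, SE 0.29, adjusted p = 1). By TPM these preMegE groups overlapped, with 4.82, 3.21 and 4 TPM in KO libraries and 2.27, 3.98 and 2.57 TPM in WT libraries.

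Tpm1 had 34.2, 40.2 and 42.7 CPM in KO preCFU-E, against 50.4, 59.5 and 54.7 CPM in WT preCFU-E, again with no overlap (log2 difference -0.49, SE 0.18, adjusted p = 1); a fit of preCFU-E alone called it (adjusted p = 0.00998). It had 50.3, 46.1 and 65.2 CPM in KO HSC, against 56.9, 84.4 and 53.2 CPM in WT HSC, and 50.8, 37.3 and 46.8 CPM in KO preMegE, against 50.1, 52.5 and 53.1 CPM in WT preMegE, where the groups overlapped. Tpm4, a short nonmuscle tropomyosin of platelets and other blood cells, had 11.8, 14.3 and 13.8 CPM in KO HSC, against 18.3, 23.3 and 20.9 CPM in WT HSC (-0.65, SE 0.30, adjusted p = 0.342). These did not overlap. Actn4 had 110, 134 and 155 CPM in KO preMegE, against 156, 199 and 213 CPM in WT preMegE, also with no overlap (-0.51, SE 0.16, adjusted p = 0.725). KO and WT libraries did not overlap for 1 of the 6 genes in HSC (12.1% of all genes tested), for 2 in preMegE (12.3%) and for 2 in preCFU-E (14%).

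Some sums of markers, of the HSC itself and of other cell types, also differed between KO and WT libraries. The summed counts of 15 megakaryocyte and platelet markers were 381 to 395 CPM in KO preMegE, against 471 to 598 CPM in WT preMegE, with 15 of 15 detected in each, and 39.3 to 49.0 CPM in KO preCFU-E, against 60.3 to 69.8 CPM in WT preCFU-E, with 11 and 13 detected. Those of 8 HSC markers were 951 to 1220 CPM in KO HSC, against 1250 to 1290 CPM in WT HSC (8 of 8 detected in each). Of this HSC sum, Hlf alone held 407 to 564 CPM in KO HSC and 612 to 618 CPM in WT HSC. Meis1 (277 CPM, against 267 CPM), Slamf1 (71.4 CPM, against 65.2 CPM) and Ly6a (32.6 CPM, against 31.7 CPM) had higher means in KO HSC. Those of 8 macrophage markers were 60.8 to 91.8 CPM in KO preMegE, against 102 to 108 CPM in WT preMegE (8 of 8 detected in each), and those of 10 smooth-muscle and stroma markers 57.4 to 68.1 CPM, against 43.0 to 50.2 CPM (6 of 10 detected in each), of which Pdgfrb alone held 48.9 to 57.3 CPM and 34.6 to 41.1 CPM. Of the macrophage sum, Lyz2 alone held a mean of 75.2 CPM in KO preMegE and 98.7 CPM in WT preMegE. The other macrophage markers had means of at most 2.54 CPM in these groups. Among them, Adgre1 went the other way (mean 0.547 CPM in KO preMegE, against 0.265 CPM in WT preMegE). In HSC, 12 red-cell markers summed to 261 to 354 CPM in KO libraries, against 406 to 482 CPM in WT libraries (12 of 12 detected in each), and 5 endothelial markers to 157 to 181 CPM, against 127 to 149 CPM (4 and 5 of 5 detected). Of the red-cell sum, Car2 alone held 177 to 280 CPM in KO HSC and 318 to 369 CPM in WT HSC. Tfrc went the other way (40.3 to 95.7 CPM, against 29.3 to 37 CPM). Of the endothelial sum, Vwf held 109 to 141 CPM in KO HSC and 84.8 to 95.9 CPM in WT HSC. Emcn went the other way (7.26 to 8.93 CPM, against 13.4 to 17.7 CPM). In preCFU-E the endothelial markers summed to 12.3 to 13.9 CPM in KO libraries, against 18.1 to 25.0 CPM in WT libraries (3 and 4 of 5 detected), and the macrophage markers to 4.26 to 6.16 CPM, against 6.27 to 11.8 CPM (6 and 8 of 8 detected). Their part in the levels of Tpm1, Tpm4, Actn1 and Actn4 was not tested.

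On the CPM scale, the levels that have not been given by library overlapped between KO and WT in each population. Tpm2 had 3.85, 1.01 and 4.11 CPM in KO HSC, against 4.68, 3.17 and 2.52 CPM in WT HSC. In preMegE it had 0.274, 0.981 and 0.219 CPM in KO libraries, against 0.889, 1.10 and 0.942 CPM in WT libraries, and in preCFU-E 0, 0.180 and 0.107 CPM in KO libraries, against 0.117, 0.0520 and 0.0711 CPM in WT libraries. Tpm3 had 220, 211 and 245 CPM in KO HSC, 255, 297 and 273 CPM in KO preMegE and 297, 294 and 270 CPM in KO preCFU-E, against 213, 246 and 186 CPM, 291, 378 and 394 CPM, and 262, 290 and 316 CPM in WT libraries of the same populations. Tpm4 had 7.52, 11.2 and 4.28 CPM in KO preMegE, against 7.81, 7.68 and 7.95 CPM in WT preMegE, and 2.48, 3.30 and 2.40 CPM in KO preCFU-E, against 4.92, 2.54 and 2.91 CPM in WT preCFU-E. Actn4 had 74.8, 61.5 and 70.8 CPM in KO HSC, against 57.6, 74.1 and 79.9 CPM in WT HSC, and 213, 218 and 239 CPM in KO preCFU-E, against 235, 261 and 317 CPM in WT preCFU-E. On the TPM scale 5 of these sets did not overlap, and the share of all genes without overlap on that scale was not computed. Tpm3 ranged over 188 to 229 TPM in KO HSC, against 161 to 174 TPM in WT HSC, and over 89.3 to 96.2 TPM in KO preCFU-E, against 108 to 122 TPM in WT preCFU-E. In preCFU-E Actn4 ranged over 43.2 to 53.7 TPM in KO libraries, against 61.8 to 78.7 TPM in WT libraries, and Tpm4 over 0.809 to 1 TPM, against 1.06 to 1.99 TPM. Tpm2 ranged over 0.098 to 0.63 TPM in KO preMegE, against 0.81 to 1.38 TPM in WT preMegE. Actn4 in preMegE, whose CPM groups did not overlap, did overlap by TPM, with 37.2 to 49.9 TPM in KO libraries, against 48 to 72.4 TPM in WT libraries. These TPM levels were not tested.

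Reads of genes that overlap a member on the opposite strand could not be told apart by strand, since the counting is not stated to use it. The most abundant overlapping gene, Gm44699 within Actn4, lies on the same strand, where strand cannot separate reads. It had 13 to 345 reads, and none of the other overlapping genes exceeded 33. Tpm3-rs7, a Tpm3-related sequence that could share its reads, had 6 to 56.

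**Figure D5:**
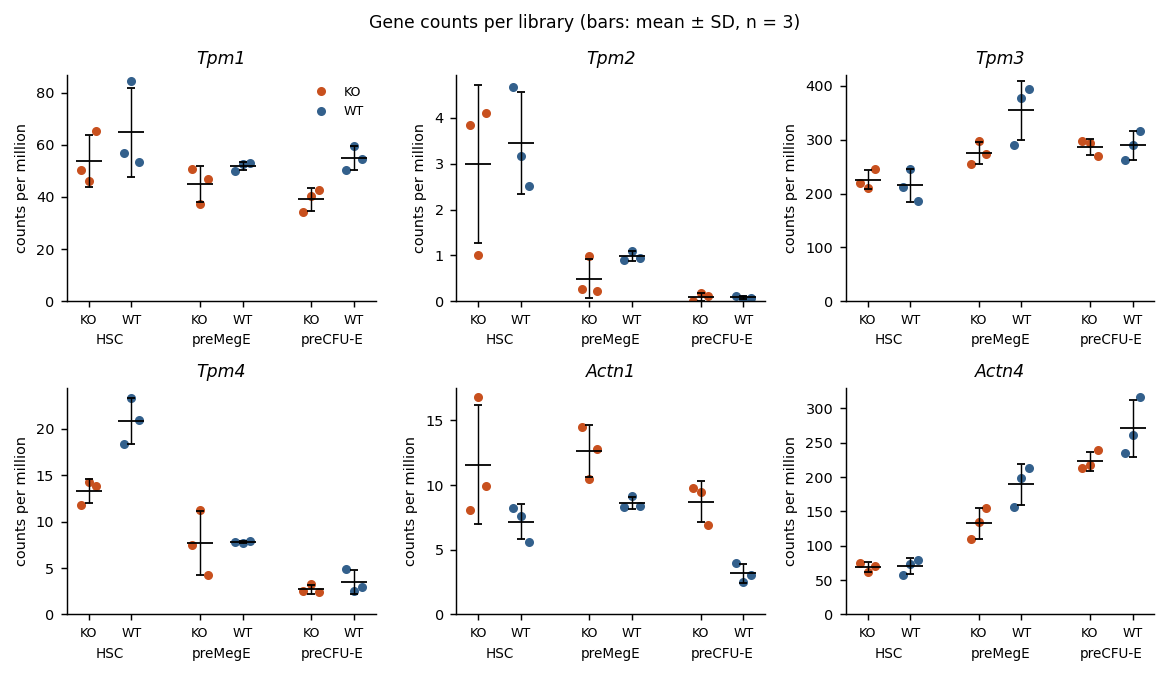
Gene counts in CPM (y axis, linear from 0) of the 6 genes in every library (points; bars are mean ± SD, n = 3), KO beside WT in each population. In the WT libraries Tpm2 and Tpm4 are lower and Actn4 is higher in the progenitors than in HSC, and the KO and WT points of Actn1 do not overlap in preCFU-E.

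Set in order by mean TPM in WT HSC, Tpm3 came first (167 ± 6.37 TPM, SD, n = 3), followed by Tpm1 (57.8 ± 9.65), Actn4 (41.7 ± 9.81), Tpm4 (12.7 ± 0.851), Tpm2 (4.67 ± 1.82) and Actn1 (3.99 ± 2.47). Only Tpm2 and Actn1, among neighbours in this order, overlapped between libraries. In WT preMegE Tpm3 stood at 180 ± 49.1 TPM, Actn4 at 64.2 ± 14, Tpm1 at 36.1 ± 6.10, Tpm4 at 3.99 ± 0.792, Actn1 at 2.94 ± 0.917 and Tpm2 at 1.09 ± 0.286. WT preCFU-E had Tpm3 at 116 ± 7.61 TPM, Actn4 at 69.0 ± 8.74, Tpm1 at 31.3 ± 3.30, Tpm4 at 1.40 ± 0.513, Actn1 at 1.01 ± 0.507 and Tpm2 at 0.0752 ± 0.0302. In preCFU-E Actn4 stood above Tpm1 without overlap, and Tpm4 and Actn1 overlapped. TPM levels of a library sum to a fixed total, so a level also moves with all other transcripts of its library.

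In WT preMegE against WT HSC 4 of the 6 genes were called, where 53.7% of all genes were, and 4 of 6 again in preCFU-E against preMegE, where 26.8% of all genes were. The median log2 difference of all genes was -0.43 in the first of these steps and -0.18 in the next. Tpm2 had 0.889, 1.10 and 0.942 CPM in WT preMegE, against 4.68, 3.17 and 2.52 CPM in WT HSC (log2 difference -1.82, SE 0.61, adjusted p = 0.0177). This call was lost without HSC WT replicate 1, preMegE WT replicate 1 or preMegE WT replicate 3 (adjusted p up to 0.077) and with counts scaled by length (adjusted p = 0.0723). In WT preCFU-E it had 0.117, 0.0520 and 0.0711 CPM, from 1 to 3 reads per library, which is lower again than in WT preMegE (-3.46, SE 0.79, adjusted p = 0.00203). KO preCFU-E replicate 1 had 0 reads, which allows up to 0.213 CPM (3 counts of its library, counting error only).

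Tpm4 fell at both steps. It had 7.81, 7.68 and 7.95 CPM in WT preMegE, against 18.3, 23.3 and 20.9 CPM in WT HSC (log2 difference -1.41, SE 0.30, adjusted p = 0.000675), and 4.92, 2.54 and 2.91 CPM in WT preCFU-E (-1.16, SE 0.31, adjusted p = 0.00756 against WT preMegE). The call of the later step was lost without preCFU-E WT replicate 2 (adjusted p = 0.0591). Nearly all of it was 1 transcript, Tpm4-201, with at least 87.5% of Tpm4 TPM in every library. Actn1 was not called in WT preMegE against WT HSC (log2 difference 0.26, SE 0.29, adjusted p = 0.442) and fell in WT preCFU-E against WT preMegE (-1.43, SE 0.30, adjusted p = 0.000962).

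Actn4, which links filaments at cell edges, rose. It had 156, 199 and 213 CPM in WT preMegE, against 57.6, 74.1 and 79.9 CPM in WT HSC (log2 difference 1.42, SE 0.16, adjusted p = 4.95e-07). In WT preCFU-E it had 235, 261 and 317 CPM (0.52, SE 0.16, adjusted p = 0.0182 against WT preMegE). That later call was lost without the filter on low counts, with counts scaled by length, and without preMegE WT replicate 1, preCFU-E WT replicate 2 or preCFU-E WT replicate 3 (adjusted p up to 0.209). Tpm3 was higher in WT preMegE, with 291, 378 and 394 CPM, than in WT HSC, with 213, 246 and 186 CPM (0.72, SE 0.13, adjusted p = 0.000167), and stood at 262, 290 and 316 CPM in WT preCFU-E (-0.29, SE 0.13, adjusted p = 0.118; called without preMegE WT replicate 1, adjusted p = 0.017). Tpm1 was not called at either step (log2 differences -0.32 and 0.08, adjusted p = 0.134 and 0.794).

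Of the 12 cassette exons, 1 was called in WT preMegE against WT HSC, where 11.2% of all exons were (6 of the 12 at an unadjusted p under 0.05), and 0 in WT preCFU-E against WT preMegE by limma, where 0.0856% were; 0 of the 12 had an unadjusted p under 0.05 in that later step. The called exon was the 79-base Tpm3 exon (fell by 10.8 points, adjusted p = 0.0400), and its call was lost in 5 of the 6 fits that left out 1 library (adjusted p up to 0.112) and with protein-coding transcripts alone (-0.754 points, adjusted p = 0.849). The Tpm1 upstream exon was higher by 10.6 points in WT preMegE than in WT HSC and by 6.93 points in WT preCFU-E than in WT preMegE, without a call (adjusted p = 0.270 and 1).

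Promoters and last exons, the other source of tropomyosin isoforms, were read as the share of a gene's TPM in transcripts with the same first or last exon. Of the 25 such classes in Tpm1, Tpm3 and Actn4, 0 were called by limma in each comparison of KO with WT, where 0.746% (HSC), 0.0471% (preMegE) and 0.0793% (preCFU-E) of 40341 classes were. At an unadjusted p under 0.05 there were 2, 2 and 5 of the 25. The nearest was a Tpm1 last exon at chr9:67027892-67028167, with 14.2%, 12.7% and 17.8% in KO preCFU-E, against 0.132%, 0.323% and 1.81% in WT preCFU-E (adjusted p = 0.137). In WT preMegE against WT HSC, 6 of the 25 were called, where 17.8% of all classes were. The Tpm3 first exon at chr3:90079540-90079863 took 92.0%, 96.4% and 94.8% of Tpm3 TPM in WT preMegE, against 72.2%, 78.5% and 60.2% in WT HSC (+24.1 points, adjusted p = 0.00236), and the last exon at chr3:90099528-90100902 rose by 27.4 points (adjusted p = 0.00196). With protein-coding transcripts alone, these changes were 8.04 and 5.2 points and were not called. Retained-intron transcripts of Tpm3 held 6.58%, 1.82% and 3.23% of its TPM in WT preMegE, against 18.7%, 17.9% and 23.0% in WT HSC. The other calls were the main Tpm1 first exon at chr9:67043578-67043962 (+14.3 points), a Tpm1 first exon further upstream at chr9:67049019-67049406 (-10.1 points), the main Tpm1 last exon (+15.9 points) and a Tpm3 last exon at chr3:90090010-90090472 (-10.2 points). Each of these 4 calls was lost in at least 2 of the 6 fits that left out 1 library. In WT preCFU-E against WT preMegE, 0 were called by limma (1 at an unadjusted p under 0.05), where 0.159% of all classes were.

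The partners of these proteins on the actin filament were read from 9 lists of 81 genes in all: actins, muscle alpha-actinins, tropomodulins and leiomodins, caldesmon and calponins, nonmuscle myosin II, adhesion and PDZ-LIM partners, other crosslinkers and bundlers, genes of filament assembly and turnover, and SRF with its cofactors. Of these, 79 were matched and 66 tested. In KO against WT, 0 of the 66 passed in preMegE (edgeR; 4 of 66 at an unadjusted p under 0.05) and 1 fell in preCFU-E. Over all genes tested, 0.0603% and 0.153% were called in these populations. The partner that fell was Flna, a filamin that crosslinks actin filaments at wide angles. Flna held 196 ± 16.7 CPM in KO preCFU-E, against 399 ± 36.6 CPM in WT preCFU-E (SD, n = 3 each; log2 difference -1.02, SE 0.16, adjusted p = 0.00442), and was not called in HSC (-0.62, adjusted p = 0.0693) or preMegE (-0.49, adjusted p = 0.784). The median log2 difference over the 66 genes was -0.12, -0.09 and 0.10 in HSC, preMegE and preCFU-E, beside 0.01, 0.01 and 0 over all genes.

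In WT preMegE against WT HSC, 41 of the 66 partners rose and 10 fell, where 53.7% of all genes were called in either direction, with a median of 0.77, beside -0.43 over all genes. Among the 25 genes of filament assembly and turnover 21 rose and 1 fell, and both tested actins rose, while both muscle alpha-actinins fell. In WT preCFU-E against WT preMegE 8 rose and 20 fell, where 26.8% of all genes were called, with a median of 0, beside -0.18 over all genes.

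The genes whose log2 CPM followed each member most closely over the 18 libraries were, by Pearson correlation, Ccdc66, Zcchc3 and Ccnd1 for Tpm1 (r = 0.821, 0.811 and 0.799), and Cobll1, Nemp2 and Hoxa7 for Tpm2 (0.947, 0.945 and 0.942). For Tpm3 they were Hmgn2, Tle4 and Trim35 (0.911, 0.889 and 0.887), and for Tpm4 Ppp2r3a, Zfp329 and Fchsd2 (0.963, 0.960 and 0.952). Actn1 was followed by Pik3c2b, Tbc1d4 and Abca1 (0.834, 0.832 and 0.828), and Actn4 by Zwint, Aldh9a1 and Ext1 (0.988, 0.983 and 0.983). These values are a description over libraries that fall into 3 populations.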

How the data were processed

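Per the labels' protocols, total RNA of sorted cells was isolated with an RNeasy micro kit and made into libraries with NuGEN Ovation kits. The authors deposited 1 Salmon transcript table per library, which holds estimated counts and TPM, per the file headers. Salmon 0.12.0 and the builds GRCm38.p6 and mm10 are named in the submitters' processing notes; Salmon's index and settings were not given in the sources used here. Of 136288 transcripts, 136176 were matched to GENCODE M21 (99.2% with the same length; at most 0.084% of reads unmatched). Every value column was used.

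Estimated counts were summed per gene, rounded to whole numbers, filtered with filterByExpr, scaled by TMM and tested with edgeR 4.0.16 in R 4.3.3 (quasi-likelihood test, 1 fit of 6 groups with 12 residual degrees of freedom, Benjamini-Hochberg adjustment, threshold 0.05). Depth limits the precision of low genes such as Tpm2. Transcript usage was tested with diffSpliceDGE on transcripts with at least 5% of their gene's TPM. Percent spliced in and shares of first and last exons were computed from the deposited TPM, kept where the mean TPM was at least 5 and the mean percentage lay between 2 and 98, and tested with limma 3.58.1 on logit values (offset 0.01); a call also needed a change of 10 points. Each procedure was tested on simulated data. Alternatives included DESeq2 1.42.0, limma-voom, other filters and minimums, and each library left out. Genes outside the 6 were named if called in a fixed list, or if among the 3 most alike and at a mean log2 CPM of 2 or more. The members and lists were chosen with earlier results of these data known. In the main fits, p-values rest on the spread between the 3 libraries of a group, pooled over the 6 groups. 1 result on a partner gene is not reported here. Counting limits cover counting error only. The share of all features without overlap between KO and WT was computed for genes by CPM, and not for exons, transcripts or TPM levels.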

Additional observations from a re-analysis of the deposited data

How the results depend on the processing

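The Tpm1 exchange kept its direction under all alternatives run and lost its call only in HSC fitted alone. Calls for Tpm3, single transcripts and the steps between WT populations were less stable. Fitted on HSC alone, usage of Tpm1-212 and of Tpm3-202 was not called (edgeR, adjusted p = 0.0843 and 0.273). With a replicate block, usage of Tpm1-212 and of Tpm1-206 in preCFU-E was not called (adjusted p = 0.312 and 0.317). Tpm1-212 in preMegE was called at a minimum share of 2% and in preMegE alone (lowest adjusted p = 0.0026), and Tpm3-202 in preCFU-E alone (adjusted p = 0.000163). Totals over all features changed as follows, with HSC, preMegE and preCFU-E in that order for KO against WT; the causes were not tested. DESeq2 called 644, 61 and 75 genes, against 182, 13 and 33 in the edgeR fit, and 134, 10 and 103 for the differences preMegE minus HSC, preCFU-E minus preMegE and preCFU-E minus HSC, against 7, 0 and 11. Without the filter on low counts, which changes the genes tested, 360, 27 and 54 genes were called, and 41, 4 and 35 for the differences. limma-voom called 293 genes in HSC and 18 in preCFU-E, and 2 and 5 for the differences preMegE minus HSC and preCFU-E minus HSC. Length-scaled counts gave 7 genes in preMegE, 15 in preCFU-E and 7 for preCFU-E minus HSC. Each population fitted alone, with fewer samples, gave 5, 36 and 252 genes, 36, 79 and 127 transcripts, 6, 37 and 106 cassette exons, and 0, 43 and 60 first and last exons.

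With a minimum share of 10%, 279, 16 and 17 transcripts were called, against 445, 25 and 33 at 5%, and with 2%, 53 in preMegE and 60 in preCFU-E. A logit offset of 0.05 gave 188 cassette exons in HSC, against 109, and 530 and 12 first and last exons in HSC and preMegE, against 301 and 19. A minimum of 1 TPM gave 12 cassette exons for WT preCFU-E against WT preMegE, against 7, and 53 first and last exons in preCFU-E and 101 in that WT step, against 32 and 64. At 20 TPM there were 37 cassette exons in preCFU-E, against 62, 1 in that WT step, and 186, 9 and 24 first and last exons in HSC, preMegE and that WT step. Protein-coding transcripts alone gave 502 and 4 cassette exons for the WT steps from HSC to preMegE and on to preCFU-E, against 917 and 7, and 8, 15, 1904 and 37 first and last exons in preMegE, preCFU-E and the 2 WT steps, against 19, 32, 7163 and 64.

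The replicate numbers did not meet the rule for pairing, a correlation over 0.1 in every pair: the correlations of their deviations ran from -0.04 to 0.14 between KO and WT and from -0.04 to 0.24 between neighbouring WT populations, and a library correlated best with its own number in 2 of 9 and 3 of 6 pairs. The 3 were all the pairs of WT preCFU-E with WT preMegE (0.24, 0.08 and 0.18), a hint from the data, not the design. With a replicate block, 94 genes were called in HSC; 166, 11 and 16 transcripts; 65, 7 and 18 cassette exons; and 88, 12 and 18 first and last exons, with 36 for WT preCFU-E against WT preMegE. In that fit the Tpm1 exon pair was called in each population and the Tpm3 pair in none.

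With 1 library left out, 89 to 595, 4 to 9 and 14 to 27 genes were called, with 4 to 48 for the difference preMegE minus HSC and 4 to 47 for preCFU-E minus HSC. Transcripts ran from 16 to 31 in preMegE and 17 to 29 in preCFU-E. Cassette exons ran from 146 to 312, 7 to 24 and 36 to 43, and from 417 to 906 and 5 to 13 in the WT steps. First and last exons ran from 345 to 768, 15 to 30 and 30 to 50, and from 3958 to 6470 and 37 to 73.

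Each value that changed sign was uncalled. Tpm1 in WT preCFU-E against WT preMegE was -0.01 without the filter, Tpm2 in preCFU-E -0.04 by limma-voom and Tpm3 in preCFU-E 0.02 with length-scaled counts. The last exon of Tpm3 at 90099528 differed by -0.0233 points in WT preCFU-E against WT preMegE with protein-coding transcripts alone. With 1 library left out, log2 differences ran from -0.15 to 0.1 for Actn4 in HSC, -0.51 to 0.2 and -0.47 to 0.72 for Tpm2 in HSC and preCFU-E, -0.06 to 0.03 for Tpm3 in preCFU-E, -0.45 to 0.25 and -0.58 to 0.03 for Tpm4 in preMegE and preCFU-E, and -0.03 to 0.09 for Tpm1 in WT preCFU-E against WT preMegE. Differences of the KO effect ran from -0.39 to 0.23 for Actn1 and -0.18 to 0.22 for Tpm1 (preMegE minus HSC), -0.27 to 0.91 for Tpm2 (preCFU-E minus HSC) and -0.61 to 0.1 for Tpm4 (preCFU-E minus preMegE).

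Exon changes ran, in points, from -17 to 12.5, -3.97 to 22.8 and -30.9 to 3.45 for the 66-base Actn1 exon, and from -12.5 to 17, -22.8 to 3.97 and -3.45 to 30.9 for its 81-base partner, both added after seeing the data. In Actn4 they ran from -0.183 to 0.347 for the exon at 28895121-28895180 in preMegE; from -0.95 to 3.55, -0.0692 to 1.36 and -0.0692 to 0.092 for that at 28895121-28895186 in HSC, preMegE and WT preCFU-E against WT preMegE; from -3.17 to 1.33, -1.36 to 0.0692 and -0.092 to 0.0692 for its 81-base partner; and from -1.93 to 0.022 and -0.022 to 1.93 for the 86-base pair in that WT step. In Tpm1 they ran from -3.44 to 1.98 in HSC and -0.128 to 0.731 in that WT step for the 79-base exon, and from -0.916 to 0.17 in that step for the last exon at 67027892. In Tpm3 they ran from -1.24 to 1.65 for the exon at 90088401-90088481 in that step, -1.35 to 0.265 for the downstream exon in WT preMegE against WT HSC, and from -4.68 to 5.13, -0.164 to 2.52 and -0.128 to 0.449 for the last exon at 90090010 in HSC, preMegE and preCFU-E.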
